A study of Homo sapiens with 24 samples.

Results

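The menin, MLL and DOT1L complex genes described here are the 10 genes MEN1, KMT2A, KMT2B, PSIP1, WDR5, ASH2L, DOT1L, MLLT1, MLLT3 and AFF1, taken by name from tables of 25680 genes each. All 10 passed the filter on low values in all 3 lines. RNA was sequenced from 3 established human acute myeloid leukaemia lines in 24 libraries that form 8 groups of 3. The question was whether blocking menin, alone or with a FLT3 kinase inhibitor, moved the transcripts of the complex that the menin inhibitor acts on. Libraries were made from polyA RNA, and spike-in RNA went into each sample before extraction.

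Menin, the product of MEN1, is a scaffold that binds the amino terminus of the histone H3 lysine 4 methyltransferases MLL (KMT2A) and MLL2 (KMT2B) and, together with the chromatin reader LEDGF (PSIP1), anchors them on genes. WDR5 and ASH2L belong to the core that MLL-family enzymes need for full activity. In MLL-rearranged leukaemia the amino terminus of MLL is fused to a partner such as AF4 (AFF1), AF9 (MLLT3) or ENL (MLLT1). These partners belong to elongation complexes and, for AF9 and ENL, bind the histone H3 lysine 79 methyltransferase DOT1L, and the fusions drive HOXA9 and MEIS1.

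In MV411, 3 libraries each came from cells given 2.5 µM MI-503, an inhibitor of the menin and MLL contact, for 3 days, 3 nM AC220 (quizartinib, an inhibitor of the receptor kinase FLT3) for 24 hours, both drugs at those doses and times, or DMSO. In MOLM13 and in OCI-AML3, 3 libraries came from cells given 2.5 µM MI-503 for 4 days and 3 from DMSO cells. MV411 carries a KMT2A and AFF1 fusion and MOLM13 a KMT2A and MLLT3 fusion, each with an internal tandem duplication of FLT3, whereas OCI-AML3 carries mutant NPM1 and an unrearranged KMT2A. Values per gene do not separate fusion transcripts from those of the normal alleles. Each line is a single cell line, and because time and line change together, line and duration cannot be told apart where MV411 is set against the other lines.

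Libraries held 23168887 to 26596469 gene reads in MV411, 23281330 to 27240357 in MOLM13 and 44364964 to 72994481 in OCI-AML3. The tables hold a normalised signal, which is whole reads divided by 1 factor per library. In MV411 these factors equal those that centre the median gene. In MOLM13 and OCI-AML3 they do not, and on the deposited scale the median gene shifted by -0.54 (log2) in MOLM13 and -0.16 in OCI-AML3 with MI-503. Values of these 2 lines and of the differences between lines are therefore given relative to the median gene. For the members the deposited scale is also given where it changes a call or the sign of a called change. For the pathway lists only counts are given on that scale, so values of other single genes may depend on it. In these bulk cultures fewer cells expressing a gene and less RNA per cell cannot be told apart.

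The labelled cell type was checked with 7 myeloid markers, whose summed level was 7656 to 8015 RPM (reads scaled to the library total) with MI-503, 3291 to 3474 with AC220, 8469 to 8585 with the combination and 1935 to 2006 with DMSO in MV411. It was 1211 to 1328 with MI-503 and 593.5 to 612 with DMSO in MOLM13, and 1827 to 1884 with MI-503 and 1551 to 1592 with DMSO in OCI-AML3. The summed level of 9 markers of T, B, red, epithelial and fibroblast cells stayed at or under 8.64 RPM in all 24 libraries. Its highest values were in OCI-AML3, where the red cell marker HBB ran from 0 to 8.02 RPM with DMSO and 0.053 to 6.15 RPM with MI-503. HBB had 0 reads in MV411 and MOLM13. With MI-503, in limma at an adjusted p under 0.05, 6 of the 7 myeloid markers rose in MV411 and 0 fell. The counts were 7 and 0 in MOLM13 and 3 and 3 in OCI-AML3, relative to the median gene. Over all genes tested 29.8% rose and 30.8% fell in MV411, 29.9% and 29.9% in MOLM13 and 32.8% and 32.8% in OCI-AML3. On the deposited scale 6.82% of all genes rose and 76.4% fell in MOLM13, and the marker counts on that scale are not given. Most of the sum in MV411 was LYZ, the lysozyme gene, at 6677 to 7084 RPM with MI-503, 2134 to 2401 RPM with AC220, 6950 to 7185 RPM with the combination and 1148 to 1243 RPM with DMSO. The part of the myeloid change in the results below was not tested.

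Per the GENCODE 29 annotation of hg38, AFF1 lies on chr4:86935002-87141054 and KMT2A on chr11:118436464-118526832, both on the plus strand. MEN1 lies on chr11:64803510-64811294, PSIP1 on chr9:15464066-15511019 and MLLT3 on chr9:20341665-20622543, all on the minus strand. WDR5 lies on chr9:134135365-134159968, ASH2L on chr8:38105242-38144076, DOT1L on chr19:2164149-2232578 and KMT2B on chr19:35718019-35738878, on the plus strand, and MLLT1 on chr19:6210379-6279948 on the minus strand. Whether counting used strand is not stated, so reads in stretches shared with another gene are uncertain. A read-through gene annotated on the same strand, AP001267.5, shares 17.9% of the exon length of KMT2A, and genes on the opposite strand share 11.2% of WDR5, 6.78% and 4.69% of DOT1L and 5.72% of ASH2L.

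In DMSO cells the members covered a wide range of levels per length, given as RPKM over the union of annotated exons, from reads recovered from the tables. In MV411 WDR5 was highest at 34.9 ± 0.497 RPKM (SD, n = 3), followed by MLLT1 at 29.03 ± 0.999 and ASH2L at 26.5 ± 0.611, and MLLT3 was lowest at 0.226 ± 0.0142. In MOLM13 WDR5 at 36.1 ± 0.239 and AFF1 at 31.9 ± 1.41 led, and in OCI-AML3 WDR5 at 27.2 ± 0.162 and PSIP1 at 22.4 ± 0.180. MLLT3 was the lowest of the 10 in each line, with KMT2A next to it.

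Neighbours in this order mostly had separate ranges over the 3 DMSO libraries. The exceptions were KMT2B and PSIP1, and DOT1L and MEN1, in MV411, and ASH2L and PSIP1, and MEN1 and DOT1L, in MOLM13. MLLT3 had 2.38 ± 0.176 RPKM in MOLM13, the line in which it is the fusion partner, 0.226 ± 0.0142 in MV411 and 0.459 ± 0.0258 in OCI-AML3. AFF1 had 18.3 ± 0.565 RPKM in MV411, the line in which it is the fusion partner, 31.9 ± 1.41 in MOLM13 and 9.90 ± 0.260 in OCI-AML3. The lines come from separately normalised tables, so these levels are set side by side with no test between lines, and the exon union of KMT2A (31305 bases) is long and lowers its value.

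**Figure D1:**
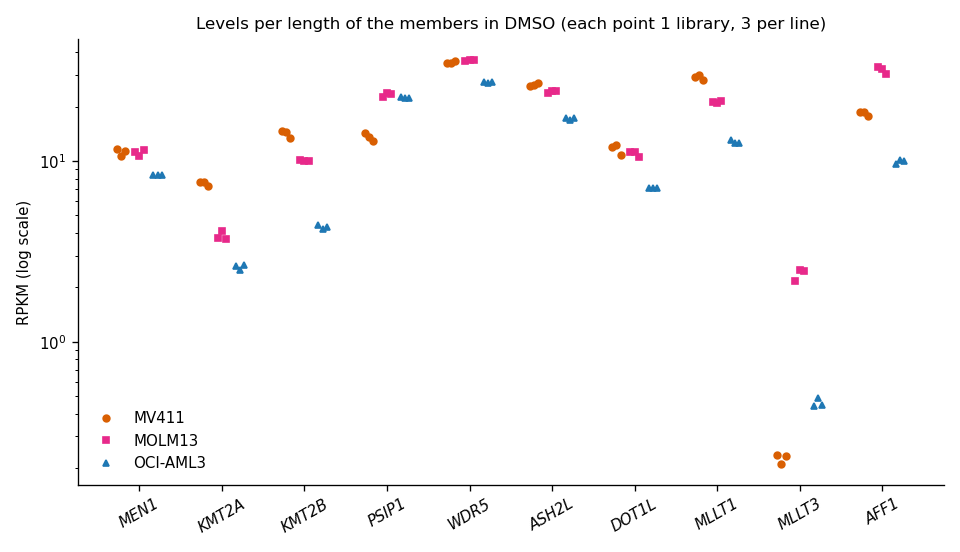
Level per length in RPKM (log axis) of each member in DMSO cells, 3 points per line for the 3 libraries. WDR5 is highest in each line and MLLT3 lowest, with MLLT3 at 2.38 RPKM in MOLM13 and 0.226 RPKM in MV411.

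Relative to the median gene the changes with MI-503 were mostly small, and no member moved the same way past the threshold in all 3 lines. AFF1 fell in MV411 and in MOLM13, KMT2A fell in MV411 and in OCI-AML3, and MEN1 itself passed the threshold in MOLM13 only. A gene is called changed here at an adjusted p under 0.05 over all genes tested, from limma on log2(signal + 1). In MV411 2 members were higher and 3 lower with MI-503, where 29.8% and 30.8% of all genes tested were higher and lower. In MOLM13 1 member was higher and 5 were lower, against 29.9% higher and 29.9% lower of all genes. In OCI-AML3 2 members were higher and 4 lower, against 32.8% and 32.8%. Read against these shares, the members were called about as often as other genes in each line.

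The median log2 change of the 10 members was -0.04 in MV411, -0.11 in MOLM13 and -0.08 in OCI-AML3, and their median absolute change was 0.13, 0.12 and 0.10. Over all genes tested the median absolute change was 0.27, 0.20 and 0.25 in the same lines. The scale matters for the counts and, in MOLM13, for the size of the changes. In MOLM13 AFF1 changed by -1.29, DOT1L by -1.01, KMT2B by -0.83, MEN1 by -0.74 and WDR5 by -0.64 on the deposited scale. On the deposited scale all 10 members were lower in MOLM13, where 6.82% of all genes were higher and 76.4% lower, and 0 of 10 were called in OCI-AML3, where 3.87% were higher and 6.79% lower. At an unadjusted p under 0.05 limma had 1 member there, PSIP1, and edgeR and DESeq2, which use their own scaling of reads, called 7 and 5.

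**Figure D2:**
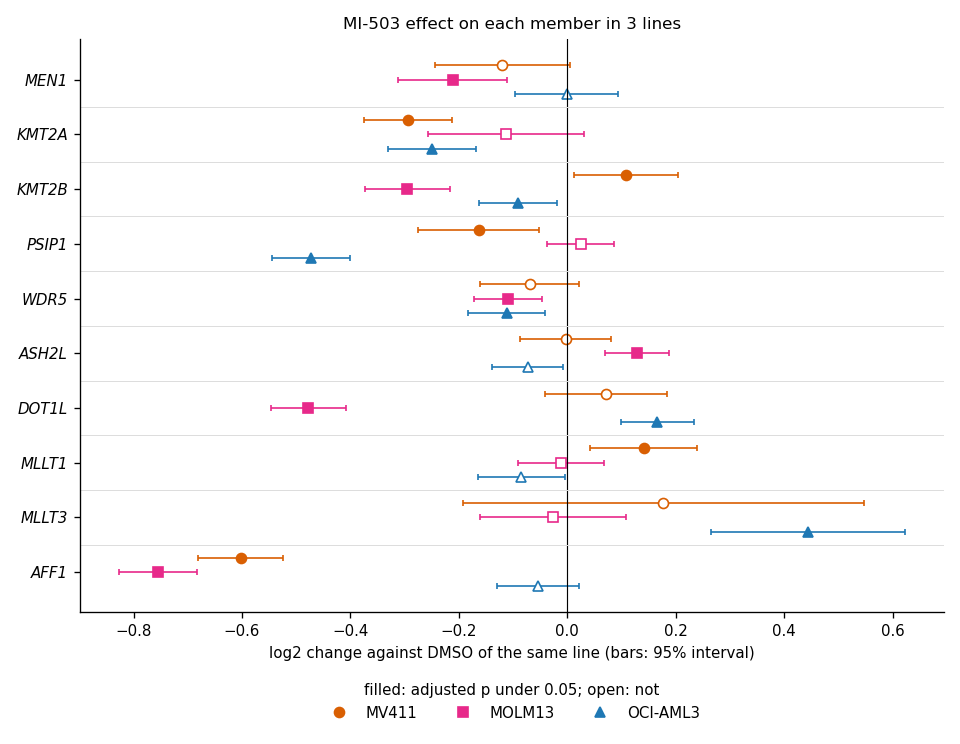
Log2 change with MI-503 against DMSO of the same line for each member, with 95% intervals, in MV411, MOLM13 and OCI-AML3. MOLM13 and OCI-AML3 are relative to the median gene. AFF1 lies at -0.60 in MV411 and -0.75 in MOLM13 but at -0.05 in OCI-AML3, and DOT1L lies at -0.48 in MOLM13. PSIP1 and ASH2L in MOLM13 change sign on the deposited scale.

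AFF1, the AF4 gene, showed the largest change of the members with MI-503 in MV411 and in MOLM13. In MV411 its signal was 3316, 3323 and 3235 with MI-503, against 5036, 5066 and 4889 with DMSO. The groups did not overlap, and the change was -0.60 ± 0.038 (log2, SE, n = 3 each) with an adjusted p of 2.57e-12. In MOLM13 it was 4957, 5369.7 and 5159 with MI-503, against 8968, 8848 and 8309.6 with DMSO. Every MI-503 library again lay under every DMSO library, and the change was -0.75 ± 0.034 with an adjusted p of 7.61e-12. In OCI-AML3 it was 6482, 5995 and 6202 with MI-503, against 6274, 6632 and 6473 with DMSO. These groups overlapped, and the change of -0.05 ± 0.035 had an adjusted p of 0.194. Without MI-503 replicate 1 of OCI-AML3 it was -0.08 with an adjusted p of 0.0128. The changes in MV411 and MOLM13 kept their call in each of the 17 alternatives of either line.

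KMT2A, the MLL gene, fell by less. In MV411 it had 4759, 4819 and 5131 with MI-503, against 6077, 6084 and 5859.9 with DMSO. The groups did not overlap, and the change was -0.29 ± 0.039 with an adjusted p of 7.12e-07. In OCI-AML3 it had 4289, 3979 and 4169 with MI-503, against 4969, 4741 and 5077 with DMSO, again without overlap. The change there was -0.25 ± 0.037 with an adjusted p of 7.28e-05, and -0.41 on the deposited scale, where it was not called. In MOLM13 it had 2411, 3146 and 2969 with MI-503, against 2964, 3243 and 2961.5 with DMSO. There replicate 1 of MI-503 stood low and the other libraries overlapped DMSO, so the change of -0.11 ± 0.068 had an adjusted p of 0.165. It was -0.64 and called lower on the deposited scale, as were all members in that line. It was 0.0013 without MI-503 replicate 1 (adjusted p = 0.980) and -0.19 without MI-503 replicate 2 (adjusted p = 0.0115).

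AFF1 and KMT2A had the largest falls of the members with MI-503 in MV411, and the bases before their RefSeq starts are shown for that reason. CG is marked because the MLL protein carries a domain that binds unmethylated CG. Each run is the 250 bases before a start, 5′ to 3′ on the plus strand of GRCh38.p14, with every CG in capitals. The KMT2A window is chr11:118436242-118436491, and those of AFF1 are chr4:86934761-86935010 for the upstream start and chr4:87007021-87007270 for the downstream start.
KMT2A: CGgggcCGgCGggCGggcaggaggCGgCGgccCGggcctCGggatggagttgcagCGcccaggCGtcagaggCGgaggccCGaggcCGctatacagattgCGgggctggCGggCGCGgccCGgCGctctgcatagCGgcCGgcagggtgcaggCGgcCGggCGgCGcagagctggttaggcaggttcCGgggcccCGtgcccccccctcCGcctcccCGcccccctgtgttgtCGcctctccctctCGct
AFF1 upstream start: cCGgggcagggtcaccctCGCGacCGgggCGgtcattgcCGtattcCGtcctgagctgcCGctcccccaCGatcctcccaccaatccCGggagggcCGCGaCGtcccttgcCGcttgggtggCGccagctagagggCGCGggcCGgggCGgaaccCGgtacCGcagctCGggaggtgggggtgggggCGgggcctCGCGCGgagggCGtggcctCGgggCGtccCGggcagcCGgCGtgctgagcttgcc
AFF1 downstream start: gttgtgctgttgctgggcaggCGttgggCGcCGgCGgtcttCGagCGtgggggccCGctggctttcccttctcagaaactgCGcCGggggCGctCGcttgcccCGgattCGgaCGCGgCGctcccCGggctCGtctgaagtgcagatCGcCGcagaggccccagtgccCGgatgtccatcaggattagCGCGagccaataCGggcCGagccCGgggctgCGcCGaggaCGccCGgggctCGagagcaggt
CG, the motif searched, reads the same on both strands. It occurred 31 times in the KMT2A window and 32 and 31 times in the AFF1 windows, against a median of 11 over 35116 promoter windows of the same length. As many CG or more were found in 10.9% of all windows for KMT2A and for the downstream AFF1 start, and in 9.52% for the upstream AFF1 start. Over the 8 members with a window in the table, KMT2B had 40 CG and MLLT1 34, while MLLT3 had 24, PSIP1 23 and 21 before its 2 starts, MEN1 18 and 15, and WDR5 between 2 and 39 before its 4 starts. Methylation and binding were not measured in these libraries.

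KMT2B, the other MLL enzyme that binds menin, was higher with MI-503 in MV411 and lower in MOLM13 and OCI-AML3. In MV411 it had 3979.9, 3873 and 4121 with MI-503, against 3793, 3774 and 3545 with DMSO. The groups lay just apart, and the change of 0.11 ± 0.046 had an adjusted p of 0.0475. That call was lost in 7 of 17 alternatives, with values of 0.12 without DMSO replicate 2 (adjusted p = 0.0525), 0.08 without DMSO replicate 3 (0.205), 0.11 without MI-503 replicate 1 (0.0886) and 0.08 without MI-503 replicate 3 (0.180). In MOLM13 it had 2070.2, 2272 and 2092 with MI-503, against 2646, 2625 and 2616 with DMSO. Here every MI-503 library was lower, and the change was -0.30 ± 0.037 with an adjusted p of 2.98e-06. In OCI-AML3 it had 2550.3, 2522 and 2531 with MI-503, against 2768, 2629.8 and 2704 with DMSO. The change of -0.09 ± 0.033 (adjusted p = 0.0283) was lost in 8 of 17 alternatives, among them the deposited scale (-0.25). Its adjusted p was 0.129 without DMSO replicate 1, 0.0730 without DMSO replicate 3, 0.0745 without MI-503 replicate 2 and 0.0687 without MI-503 replicate 3.

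MEN1, which encodes the protein that MI-503 binds, had 1153, 1067 and 1135 with MI-503 in MV411, against 1249, 1149 and 1249 with DMSO. These overlapped, and the change of -0.12 ± 0.060 had an adjusted p of 0.0905, which was 0.0448 without DMSO replicate 2 and 0.0431 when only these 6 libraries were fitted. In MOLM13 it had 1097, 993 and 1019.9 with MI-503, against 1207, 1145 and 1249 with DMSO. The groups were apart, and the change was -0.21 ± 0.047 with an adjusted p of 0.00102. In OCI-AML3 it had 2016, 2215 and 2256 with MI-503, against 2169.9, 2159 and 2156 with DMSO, and the change was -0.00 ± 0.043 with a 95% interval of -0.10 to 0.09. PSIP1, the LEDGF gene, fell in OCI-AML3 with 6983, 6505 and 6448 with MI-503 against 9267, 9256 and 9115 with DMSO. That change was -0.47 ± 0.033 (adjusted p = 1.04e-07), the largest fall among the members in that line, and on the deposited scale it was -0.63 and not called.

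In MV411 PSIP1 had 2037, 2148 and 2091 with MI-503, against 2437, 2327 and 2268 with DMSO. The groups were apart and the change was -0.16 ± 0.054 with an adjusted p of 0.0115, which was 0.0637 without DMSO replicate 1 and 0.0530 without MI-503 replicate 1. In MOLM13 it had 4089, 4109 and 4064 with MI-503, against 3894, 4113 and 4054 with DMSO, a change of 0.02 ± 0.029 (adjusted p = 0.492) that became -0.51, called lower, on the deposited scale. The core subunits among the members, WDR5 and ASH2L, moved little relative to the median gene. WDR5 changed by -0.11 ± 0.030 in MOLM13 (adjusted p = 0.00442) and -0.11 ± 0.032 in OCI-AML3 (adjusted p = 0.00866, not called with equal library totals or on the deposited scale), and by -0.07 ± 0.044 in MV411 (adjusted p = 0.179). ASH2L rose by 0.13 ± 0.028 in MOLM13 (adjusted p = 7.88e-04) relative to the median gene but was -0.40 and called lower there on the deposited scale. It was -0.00 ± 0.041 in MV411 and -0.07 ± 0.030 in OCI-AML3, where its adjusted p lay just over the threshold and was 0.00223 without MI-503 replicate 1. ASH2L was also called there in limma with TMM factors (adjusted p = 0.0310), a pseudocount of 8 (0.0488) or a minimum value of 50 (0.0466), and in edgeR (0.0410).

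DOT1L, the H3 lysine 79 methyltransferase, had 2224, 2280.5 and 2297 with MI-503 in MOLM13, against 3209, 3219.6 and 3044 with DMSO. The groups were far apart, and the change was -0.48 ± 0.033 with an adjusted p of 1.80e-09. In OCI-AML3 it went the other way, with 5259.6, 5555 and 5577 with MI-503 against 4874, 4869.9 and 4865 with DMSO. That change was 0.17 ± 0.031 (adjusted p = 4.70e-04), and 0.01 on the deposited scale, where it was not called. In MV411 it had 3619, 3311 and 3613 with MI-503, against 3389.7, 3501 and 3145 with DMSO, a change of 0.07 ± 0.055 with an adjusted p of 0.270.

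MLLT3, the AF9 gene, rose in OCI-AML3, with 332, 284 and 311 with MI-503 against 218, 242 and 220 with DMSO. The groups were apart, and the change of 0.44 ± 0.082 had an adjusted p of 4.24e-04, and was 0.28 on the deposited scale, where it was not called. In MOLM13, where AF9 is the fusion partner, it had 487, 492 and 469.8 with MI-503, against 449.7, 517 and 511 with DMSO, a change of -0.03 ± 0.064 with an adjusted p of 0.735, and -0.56 and called lower on the deposited scale. In MV411 it had 50.1, 53.6 and 55.5 with MI-503, against 48.5, 43.2 and 48.8 with DMSO, and the 95% interval of its change ran from -0.19 to 0.55. MLLT1, the ENL gene, rose in MV411, with 3887, 3738 and 3953 with MI-503 against 3504, 3580.2 and 3417 with DMSO. The change of 0.14 ± 0.048 had an adjusted p of 0.0141, which was 0.0586 without DMSO replicate 3 and 0.0621 without MI-503 replicate 3. It was -0.01 ± 0.037 in MOLM13 and -0.08 ± 0.037 in OCI-AML3, with adjusted p values of 0.815 and 0.0616, and in MOLM13 it was -0.54 and called lower on the deposited scale.

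**Figure D3:**
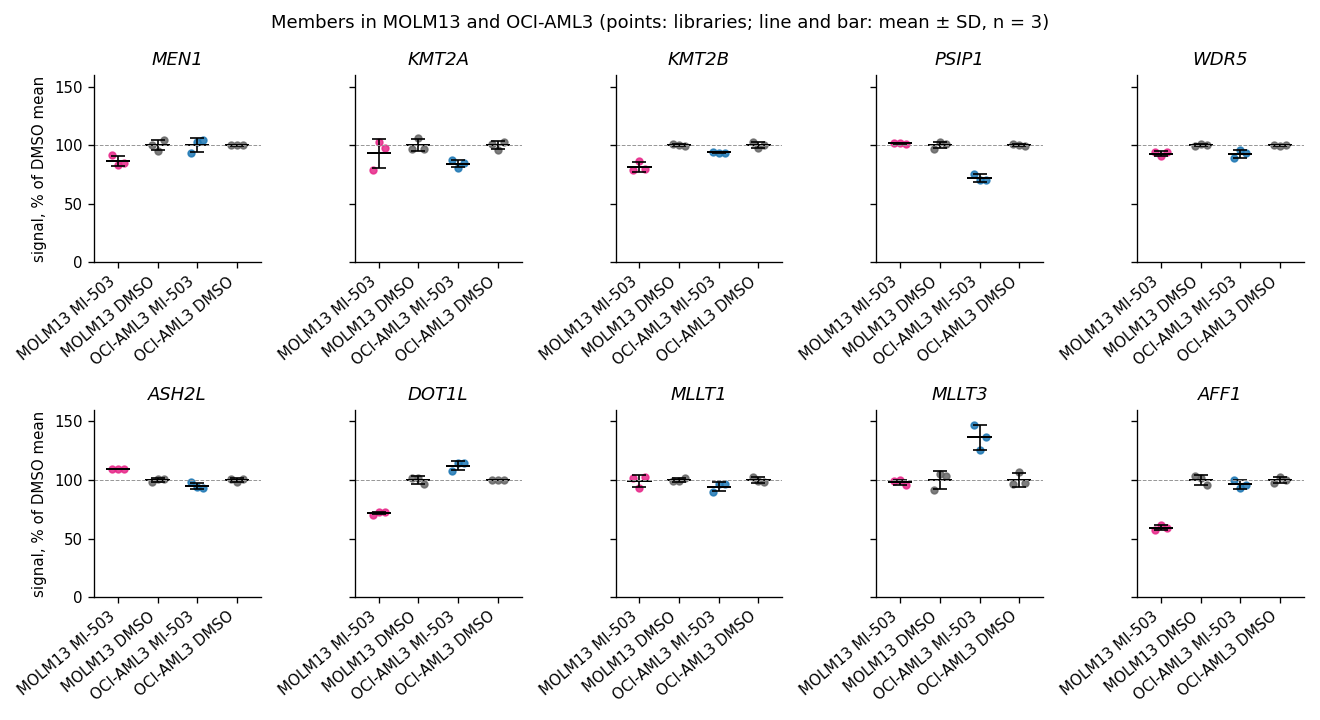
Signal of each member as a percent of the DMSO mean of the same line, relative to the median gene, in MOLM13 and OCI-AML3, with points for libraries and mean ± SD (n = 3). The MI-503 libraries of MOLM13 lie under all DMSO libraries for AFF1, DOT1L, KMT2B, MEN1 and WDR5 and above them for ASH2L. Those of OCI-AML3 lie under them for PSIP1, KMT2A, KMT2B, WDR5 and MLLT1 and above them for MLLT3 and DOT1L. Such separation was not counted over all genes.

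The effect of MI-503 was tested between lines as the difference of the effects within each line. In MV411 minus MOLM13, 4 members were higher and 2 lower, where 26.3% and 30.6% of all genes were. In MV411 minus OCI-AML3, 3 members were higher and 1 lower, against 31.3% and 31.8%. In MOLM13 minus OCI-AML3, 2 members were higher and 5 lower, against 32.4% and 30.5%. On the deposited scale 10 members were higher and 0 lower in MV411 minus MOLM13, where 69.4% and 8.1% of all genes were. There 0 and 0 were called in MV411 minus OCI-AML3, where 12.9% and 6.67% of all genes were, and 0 and 3 in MOLM13 minus OCI-AML3, where 4.76% and 20% were. The 3 differences share libraries, so they are not independent of each other. On the deposited scale MV411 stays centred on the median gene while MOLM13 and OCI-AML3 do not, so differences with MV411 mix unlike scalings.

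The effect on AFF1 was lower in both lines with a KMT2A fusion than in OCI-AML3. The difference was -0.55 ± 0.049 for MV411 minus OCI-AML3 (adjusted p = 6.93e-09) and -0.70 ± 0.053 for MOLM13 minus OCI-AML3 (adjusted p = 2.91e-09), and 0.15 ± 0.050 for MV411 minus MOLM13 (adjusted p = 0.0130). The effect on DOT1L was lower in MOLM13 than in either other line, with 0.55 ± 0.059 for MV411 minus MOLM13 (adjusted p = 4.01e-08) and -0.64 ± 0.044 for MOLM13 minus OCI-AML3 (adjusted p = 8.96e-10). The effect on PSIP1 was lower in OCI-AML3 than in the other lines, relative to the median gene, with 0.31 ± 0.053 for MV411 minus OCI-AML3 (adjusted p = 3.94e-05) and 0.50 ± 0.044 for MOLM13 minus OCI-AML3 (adjusted p = 2.58e-08), neither called on the deposited scale. For KMT2A no difference passed the threshold relative to the median gene. It was -0.18 ± 0.087 for MV411 minus MOLM13 (adjusted p = 0.0820), which was -0.29 without MI-503 replicate 1 of MOLM13 and -0.22 without DMSO replicate 2 of MOLM13 (adjusted p = 1.47e-04 and 0.0427), and turned to 0.35 on the deposited scale. It was -0.04 ± 0.054 for MV411 minus OCI-AML3 (95% interval -0.16 to 0.07). For MOLM13 minus OCI-AML3 it was 0.14 ± 0.096, 0.25 without MI-503 replicate 1 of MOLM13 (adjusted p = 0.00171), and -0.24, not called, on the deposited scale. On the deposited scale the AFF1 difference kept its call for MOLM13 minus OCI-AML3 (-1.07) and lost it for MV411 minus OCI-AML3 (-0.39). Its sign was the same on both scales in each of the 3 differences.

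AC220 changed 8 of the 10 members in MV411, of which PSIP1 and WDR5 fell most and KMT2A rose most. With AC220 3 members were higher and 5 lower, where 37.7% and 37.3% of all genes were. Read against these shares, the members were called about as often as other genes. The median absolute change of the members was 0.37, against 0.45 over all genes. The AC220 and MI-503 comparisons share the same 3 DMSO libraries.

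PSIP1 had 1230.3, 1181 and 1289 with AC220, against 2437, 2327 and 2268 with DMSO, a change of -0.93 ± 0.054 with an adjusted p of 1.59e-13. WDR5 had 2022, 1897 and 2032 with AC220, against 3181, 3174 and 3326 with DMSO, a change of -0.70 ± 0.044 with an adjusted p of 6.59e-13. Both genes stood well under DMSO in every AC220 library. The summed level of 10 proliferation markers moved the same way, at 446 to 493 RPM with AC220, 660.2 to 714.5 RPM with the combination, 2788 to 2878 with MI-503 and 2926 to 2951 with DMSO, and all 10 fell with AC220. Its part in these results was not tested. DOT1L had 2631, 2470.1 and 2448.5 with AC220, against 3389.7, 3501 and 3145 with DMSO, a change of -0.41 ± 0.055 (adjusted p = 3.96e-07). MEN1 had 894, 1022 and 953 with AC220, against 1249, 1149 and 1249 with DMSO, a change of -0.35 ± 0.060 (adjusted p = 1.66e-05). MLLT3 had 25.0, 29.8 and 39.4 with AC220, against 48.5, 43.2 and 48.8 with DMSO, and its change of -0.58 ± 0.179 (adjusted p = 0.00523) rests on few reads.

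KMT2A and AFF1 rose with AC220, opposite to MI-503. KMT2A had 7826, 7940.5 and 7796 with AC220, against 6077, 6084 and 5859.9 with DMSO, a change of 0.39 ± 0.039 with an adjusted p of 4.02e-09. AFF1 had 6072, 6111 and 5949 with AC220, against 5036, 5066 and 4889 with DMSO, a change of 0.27 ± 0.038 with an adjusted p of 6.66e-07. No AC220 library overlapped DMSO for either gene. ASH2L rose by 0.13 ± 0.041 (adjusted p = 0.00762), while KMT2B and MLLT1 changed by -0.01 ± 0.046 and -0.00 ± 0.048, with 95% intervals of -0.11 to 0.08 and -0.10 to 0.10.

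**Figure D4:**
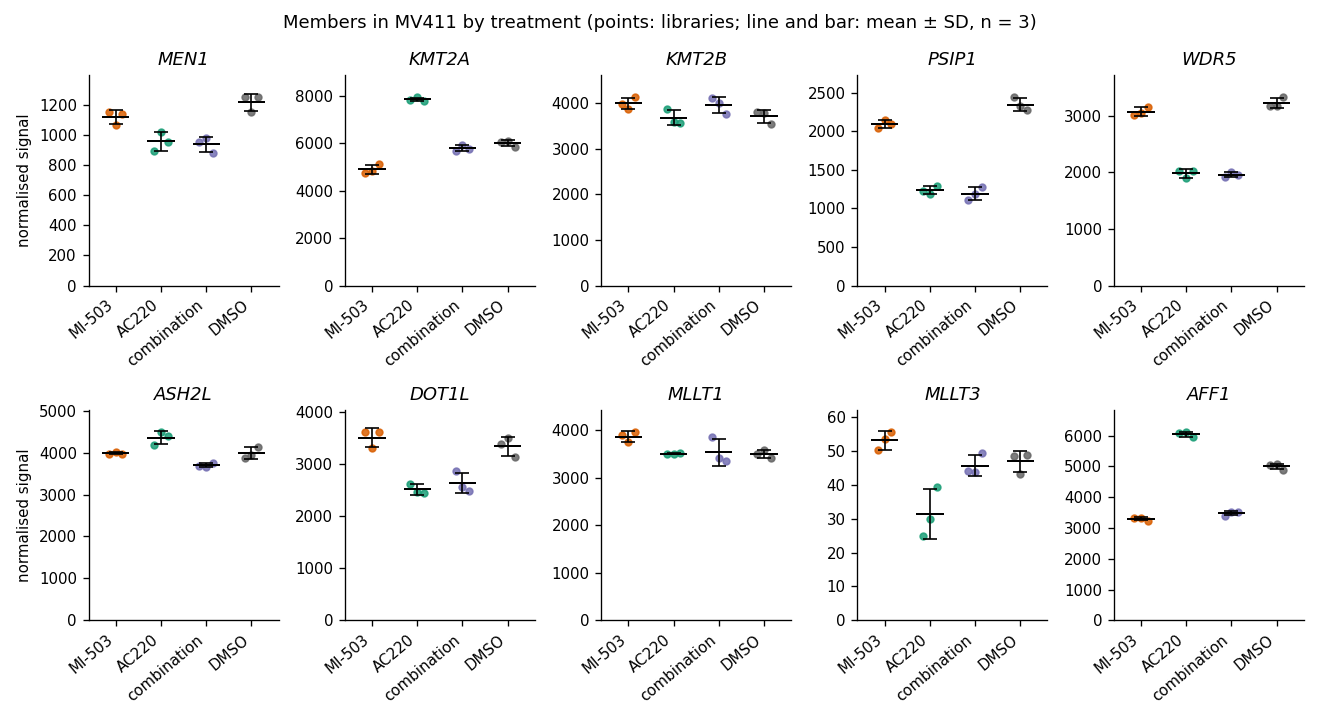
Normalised signal of each member in the MV411 libraries, with mean ± SD (n = 3), for MI-503, AC220, the combination and DMSO. KMT2A and AFF1 stand above DMSO with AC220 and under it with MI-503, and PSIP1 and WDR5 stand low in AC220 and combination libraries.

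With the combination 0 members were higher and 6 lower than with DMSO, where 39.3% and 40.1% of all genes were. The 6 were PSIP1, WDR5, AFF1, MEN1, DOT1L and ASH2L, and at an unadjusted p under 0.05 limma likewise had 0 higher, as did edgeR and DESeq2 after adjustment. PSIP1 had 1109.8, 1185 and 1276 with the combination, a change of -0.98 ± 0.054 against DMSO (adjusted p = 3.53e-14), and WDR5 had 1918, 1999 and 1958, a change of -0.72 ± 0.044 (adjusted p = 2.67e-13). AFF1 had 3404, 3513 and 3513 with the combination, a change of -0.52 ± 0.038 (adjusted p = 7.14e-12). KMT2A had 5693, 5930 and 5780.2 with the combination and was -0.05 ± 0.039 from DMSO (adjusted p = 0.241). So AFF1 lay near its MI-503 level and KMT2A near its DMSO level. MEN1 changed by -0.38 ± 0.060, DOT1L by -0.34 ± 0.055 and ASH2L by -0.11 ± 0.041 against DMSO, and the call of ASH2L (adjusted p = 0.0186) was lost without DMSO replicate 3 (0.0985) and without combination replicate 2 (0.0611). KMT2B at 0.09 ± 0.046 had an adjusted p of 0.0664, and 0.0170 without combination replicate 3.

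Against MI-503 alone, the combination had 1 member higher and 6 lower, where 34.9% and 33.6% of all genes were. KMT2A was higher by 0.24 ± 0.039 (adjusted p = 7.32e-06), and PSIP1 at -0.82 ± 0.054 and WDR5 at -0.65 ± 0.044 were furthest down. DOT1L at -0.41 ± 0.055 and MEN1 at -0.26 ± 0.060 were also lower. MLLT1 at -0.13 ± 0.048 and ASH2L at -0.11 ± 0.041 lost their calls when single libraries were left out. For MLLT1 the adjusted p was 0.0548 without MI-503 replicate 1, 0.0782 without MI-503 replicate 3, 0.103 without combination replicate 2 and 0.108 without combination replicate 3. For ASH2L it was 0.0698 without MI-503 replicate 2, 0.0535 without MI-503 replicate 3 and 0.0791 without combination replicate 2. AFF1 at 0.08 ± 0.038 was not called (adjusted p = 0.0697, and 0.0374 without combination replicate 1).

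Against AC220 alone, the combination had 1 member higher and 3 lower, where 27.4% and 28.1% of all genes were. The 3 were AFF1 at -0.80 ± 0.038 (adjusted p = 2.09e-14), KMT2A at -0.44 ± 0.039 (adjusted p = 1.65e-09) and ASH2L at -0.23 ± 0.041 (adjusted p = 3.32e-05). MLLT3 was higher by 0.55 ± 0.179 (adjusted p = 0.0119), a call lost without AC220 replicate 1 (0.40, adjusted p = 0.0802) and in DESeq2 (0.0622). PSIP1, WDR5, MEN1 and DOT1L were not called, with 95% intervals of -0.16 to 0.06, -0.11 to 0.07, -0.15 to 0.09 and -0.04 to 0.18. KMT2B was 0.11 ± 0.046 with an adjusted p of 0.0536, which was 0.0203 without AC220 replicate 1 and 0.0145 without combination replicate 3. It was also called in limma with TMM factors (adjusted p = 0.0432) and in edgeR (0.0430).

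The interaction compares the MI-503 change measured among AC220-treated cells with the MI-503 change measured without AC220, as a difference of log2 changes. It was called for 0 members higher and 3 lower, where 20.9% and 21.6% of all genes were, and 0 were higher at an unadjusted p under 0.05 in limma or called by edgeR or DESeq2. These were ASH2L at -0.23 ± 0.058 (adjusted p = 0.00225), AFF1 at -0.20 ± 0.054 (adjusted p = 0.00494) and KMT2A at -0.14 ± 0.055 (adjusted p = 0.0395). ASH2L had 3683, 3662 and 3755 with the combination, 4184, 4489 and 4395 with AC220, 3961, 4007 and 3972 with MI-503 and 3876, 3952 and 4143 with DMSO, so it stood above DMSO with AC220 alone and under it with both drugs. The KMT2A call was lost without AC220 replicate 1 (adjusted p = 0.0593), 2 (0.0833) or 3 (0.0560), DMSO replicate 3 (0.0884), MI-503 replicate 3 (0.135), combination replicate 1 (0.0545) or combination replicate 3 (0.0520). For the other 7 members the 95% interval of the interaction included 0, and it was widest for MLLT3, from -0.15 to 0.89. MLLT1, at -0.13 ± 0.068, had an adjusted p of 0.129, and 0.00579 without combination replicate 1 and 0.0341 with equal library totals.

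**Figure D5:**
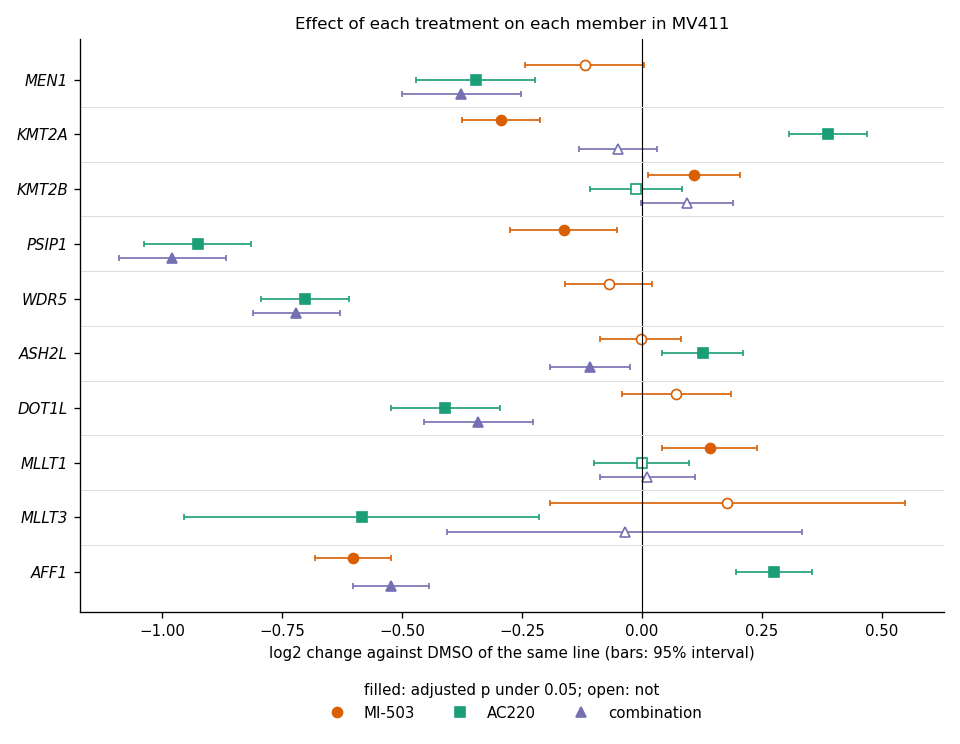
Log2 change of each member with MI-503, AC220 and the combination against DMSO in MV411, with 95% intervals. AFF1 with the combination lies at -0.52, near MI-503 at -0.60, while PSIP1 and WDR5 with the combination lie near AC220.

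Other genes of the pathway were counted from lists of known subunits. Over all genes tested, 29.8% were higher and 30.8% lower with MI-503 in MV411, 29.9% and 29.9% in MOLM13 and 32.8% and 32.8% in OCI-AML3, while in MV411 AC220 had 37.7% higher and 37.3% lower, and both drugs together 39.3% and 40.1%. Of 15 further MLL-family enzymes and shared subunits, 2 were higher and 4 lower with MI-503 in MV411, 2 and 4 in MOLM13 and 3 and 7 in OCI-AML3. SETD1B, another H3 lysine 4 methyltransferase, changed by -0.30 ± 0.045 in MOLM13 and -0.67 ± 0.040 in OCI-AML3, and TASP1, the protease that cleaves MLL, by -0.34 ± 0.069 and -0.64 ± 0.041. The shared subunit RBBP5 rose by 0.41 ± 0.051 in MV411. From the same list DPY30 changed by 0.63 ± 0.047 in OCI-AML3 and -0.20 ± 0.071 in MV411, and PAGR1 by 0.44 ± 0.048 in MOLM13. With AC220, 5 of the 15 were higher and 6 lower, and with the combination 3 and 7, among them HCFC1, a host cell factor bound by MLL, at -0.52 ± 0.050 and -0.91 ± 0.050.

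Of 14 DOT1L partners and elongation factors, 13 were tested in MV411 and OCI-AML3 and 14 in MOLM13. With MI-503 1 was higher and 9 lower in MV411, 6 higher and 2 lower in MOLM13 and 2 higher and 6 lower in OCI-AML3, and their median change was -0.21, -0.02 and -0.06. The shares over all genes were 29.8% and 30.8%, 29.9% and 29.9%, and 32.8% and 32.8% in the same lines. EAF2, an ELL-associated factor, had a mean signal of 1123 ± 69.8 with MI-503 and 1640.4 ± 76.5 with DMSO in MV411 (-0.55 ± 0.054), and 669.8 ± 19.4 with MI-503 and 353 ± 7.72 with DMSO in MOLM13 (0.92 ± 0.056). AFF3, a relative of AFF1, had 1731 ± 75.9 with MI-503 and 714.5 ± 73.9 with DMSO in MOLM13, while it had 2325 ± 67.2 with MI-503 and 2888 ± 41.0 with DMSO in MV411. The elongation factor gene ELL2 had 166 ± 15.3 with MI-503 and 51.7 ± 9.17 with DMSO in MOLM13. Each of these differed between MV411 and MOLM13 in the test of the difference, at -1.47 ± 0.075 for EAF2, -1.59 ± 0.077 for AFF3 and -1.59 ± 0.171 for ELL2.

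The 6 subunits of the PAF1 complex, which helps MLL reach chromatin, counted 2 higher and 3 lower with MI-503 in MV411, 1 and 0 in MOLM13, and 1 and 4 in OCI-AML3. CDC73, one of them, changed by -0.48 ± 0.059 in MV411 and by -0.24 ± 0.038 in OCI-AML3, where it was not called on the deposited scale. Of 7 writers and readers of H3 lysine 36 methylation, the mark that LEDGF reads, 1 was higher and 3 lower in MV411, 1 and 0 in MOLM13 and 0 and 6 in OCI-AML3. With AC220, genes of this list moved both ways. WHSC1, an H3 lysine 36 methyltransferase gene, changed by -1.31 ± 0.042, MORF4L1 by -0.54 ± 0.045 and SETD2 by 0.42 ± 0.041. Of 6 H3 lysine 4 demethylase genes and partners, 1 was higher and 3 lower with MI-503 in MV411, 2 and 3 in MOLM13 and 2 and 2 in OCI-AML3. With AC220 KDM5B changed by 0.81 ± 0.042, KDM5A by 0.35 ± 0.041 and KDM1A by -0.37 ± 0.045. Over all genes, 29.8% and 30.8% were higher and lower in MV411, 29.9% and 29.9% in MOLM13 and 32.8% and 32.8% in OCI-AML3. The counts in MOLM13 and OCI-AML3 are relative to the median gene. On the deposited scale the 5 lists, in the order given, had 0 higher and 14 lower, 4 and 9, 0 and 6, 0 and 7 and 0 and 6 in MOLM13, and 0 and 2 for the MLL-family list and 0 and 0 for the others in OCI-AML3. On that scale 76.4% of all genes were lower in MOLM13 and 6.79% in OCI-AML3.

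For scale, MEIS1 and PBX3, known targets of the menin and MLL complex, changed more than any member with MI-503 in each line. MEIS1 changed by -2.31 ± 0.058 in MV411, -1.65 ± 0.053 in MOLM13 and -2.62 ± 0.043 in OCI-AML3. MEF2C changed by -2.81 ± 0.057, -2.36 ± 0.036 and -0.26 ± 0.036 in the same lines, PBX3 by -1.81 ± 0.048, -2.70 ± 0.043 and -1.20 ± 0.070, and HOXA9 by -1.88 ± 0.060, -0.33 ± 0.041 and -0.34 ± 0.030. Values in MOLM13 and OCI-AML3 are relative to the median gene, and calls of these genes on the deposited scale are not given. With AC220 in MV411 DUSP6, a feedback gene of the ERK pathway, changed by -5.26 ± 0.137 and the STAT5 target PIM1 by -2.71 ± 0.056.

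Likeness over the 12 MV411 libraries was described by Pearson's r of log2(signal + 1), searched over 11054 genes with a mean signal of at least 100, all of which share these libraries and treatments. The genes most like KMT2A were LAMP5-AS1 (r = 0.989) and HADHB (r = 0.986), and those most like AFF1 were MBNL1-AS1 (r = 0.995) and WHAMMP2 (r = 0.995). PSIP1 was most like DEK (r = 0.997) and ZNF367 (r = 0.996), and WDR5 most like DTL (r = 0.995) and MCM4 (r = 0.995). For MEN1 they were UBE2Z (r = 0.973) and GDF11 (r = 0.965), for DOT1L ILVBL (r = 0.983) and CACTIN (r = 0.978), and for ASH2L PTDSS1 (r = 0.994) and GMPS (r = 0.946). KMT2B was most like NPRL3 (r = 0.941) and PPP1R12C (r = 0.920), MLLT1 like SFSWAP (r = 0.912) and MTG2 (r = 0.910), and MLLT3 like ACO1 (r = 0.931) and TBCCD1 (r = 0.927). Among the other members WDR5 was nearest to PSIP1 (r = 0.989), DOT1L (r = 0.914) and MEN1 (r = 0.898), and AFF1 was nearest to KMT2A (r = 0.889).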

How the data were processed

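RNA-seq values of 24 libraries came in 3 tables of 25680 genes, 1 for each line (MV411 with 12 libraries, the others with 6). All per-sample columns were used (0 left out). The deposited signal is a normalised value, which the authors made with DESeq version 2 on hg38, per the submitters' processing notes. The aligner, counting program and annotation are not given in the sources used here. The tables are named for ERCC spike-in scaling, per the labels, and spike-in rows were not used here. In every library 100% of values were whole reads divided by 1 factor, within a tolerance of 0.001. The factors equalled median-of-ratios factors in MV411 (constant ratio 1.01) and differed by a ratio of 0.764 to 1.26 in MOLM13 and 0.791 to 1.24 in OCI-AML3. The MOLM13 and OCI-AML3 tables were therefore divided by median-of-ratios factors, and the deposited scale was kept as an alternative.

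Each comparison used limma 3.58.1 in R 4.3.3 on log2(value + 1) with a variance trend, two-sided. Genes entered when 3 or more libraries reached a value of 10. P-values were adjusted by Benjamini and Hochberg's method over all genes (threshold 0.05). One fit covered MV411 with its 12 libraries. Effects between lines were compared as differences of within-line changes over genes kept in both tables. The fit was also run on simulated reads with set changes in a small part of the genes. That does not check the choice of scale, nor changes as small as most of those of the members. Fits on recovered reads with edgeR 4.0.16 and DESeq2 1.42.0, other scalings, pseudocounts (0.5 and 8), filters (50, or none), no trend, smaller fits, a block for the replicate number and leaving out each library were the alternatives.

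The 10 members, the lists and the rules were chosen with earlier results of these data known. Named genes were the members, up to 3 genes per list and comparison with the largest change among those called with a group mean of at least 100, some of which are given, 6 genes known to respond to the drugs, and the 2 genes most like each member. Triplicates are called biological per the labels, but how cultures were separated is not described, so p-values measure the spread between these libraries. Replicate pairs differed by more than counting error (chi-square per degree of freedom 1.59 to 9.41 over 24 pairs). RPKM used recovered reads and GENCODE 29 exon lengths. Promoter sequences are from RefSeq (GRCh38.p14), in which 8 members matched and DOT1L and ASH2L have none printed.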

Additional observations from a re-analysis of the deposited data

Results flagged for a closer look

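The following members differed in their MI-503 effect between lines in the test of the difference itself (limma, log2 ± SE, adjusted over all genes). For MV411 minus MOLM13 these were DOT1L at 0.55 ± 0.059, KMT2B at 0.40 ± 0.056, AFF1 at 0.15 ± 0.050, MLLT1 at 0.15 ± 0.054, PSIP1 at -0.19 ± 0.051 and ASH2L at -0.13 ± 0.046. On the deposited scale PSIP1 and ASH2L turned to 0.34 and 0.40. There KMT2A, MEN1, MLLT3 and WDR5 were also called, at 0.35, 0.62, 0.74 and 0.57. Differences are relative to the median gene unless the deposited scale is named. The MLLT1 difference (adjusted p = 0.0205) was lost without DMSO replicate 3 (0.0515) or MI-503 replicate 3 (0.0536) of MV411 and without DMSO replicate 3 (0.0557) or MI-503 replicate 2 (0.0854) of MOLM13. The ASH2L difference (adjusted p = 0.0169) was lost without DMSO replicate 3 of MV411 (just over the threshold) or DMSO replicate 1 of MOLM13 (0.0517).

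For MV411 minus OCI-AML3 these were AFF1 at -0.55 ± 0.049, PSIP1 at 0.31 ± 0.053, MLLT1 at 0.23 ± 0.053 and KMT2B at 0.20 ± 0.052, none of which was called on the deposited scale, where limma had 0 members at an unadjusted p under 0.05. MEN1 and DOT1L, not called for this difference, were called without MI-503 replicate 1 of OCI-AML3 (-0.17) and without DMSO replicate 3 of MV411 (-0.14). They were also called with equal library totals (-0.17 and -0.15), and MLLT3 was called with no variance trend (-0.27). For MOLM13 minus OCI-AML3 these were AFF1 at -0.70 ± 0.053, DOT1L at -0.64 ± 0.044, PSIP1 at 0.50 ± 0.044, MLLT3 at -0.47 ± 0.109, MEN1 at -0.21 ± 0.068, KMT2B at -0.20 ± 0.050 and ASH2L at 0.20 ± 0.039. Of these AFF1, DOT1L and MLLT3 were also called on the deposited scale, where ASH2L turned to -0.17.

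In MV411 the effect of MI-503 differed with and without AC220, in the test of the interaction, for ASH2L at -0.23 ± 0.058, AFF1 at -0.20 ± 0.054 and KMT2A at -0.14 ± 0.055.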

How the results depend on the processing

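In the 6 comparisons within MV411, the number of genes called stayed within 1.5 times under every alternative run. On the deposited scale the members called were 10 in MOLM13 (6 relative to the median gene), 0 in OCI-AML3 (6), 10 for MV411 minus MOLM13 (6), where the median of all genes moves to 0.52, 0 for MV411 minus OCI-AML3 (4) and 3 for MOLM13 minus OCI-AML3 (7). Genes called fell to 1674 in OCI-AML3 (607 higher and 1067 lower), 2688 for MV411 minus OCI-AML3 (1774 and 914) and 3221 for MOLM13 minus OCI-AML3 (620 and 2601), against 10299, 8649 and 8188. Among changes called on either scale, signs turned on the deposited scale for PSIP1 (-0.51) and ASH2L (-0.40) in MOLM13. They also turned for KMT2A (0.35), PSIP1 (0.34) and ASH2L (0.40) in MV411 minus MOLM13 and for ASH2L (-0.17) in MOLM13 minus OCI-AML3. Some differences called on neither scale turned as well, such as KMT2A in MOLM13 minus OCI-AML3 (-0.24). That scale shifts every gene of a library by 1 factor. Leaving out 1 library gave 3 to 5 members called for MI-503 in MV411 (5 with all), and 3 without DMSO replicate 3, MI-503 replicate 1 or MI-503 replicate 3. The added alternative of equal library totals in MOLM13, OCI-AML3 and the line differences was chosen after seeing the data. Over all results, leaving out 1 library kept call and direction in 813, with 35 calls lost, 14 gained, 38 other shifts and 0 reversed; the other alternatives kept 1124, with 27 lost, 20 gained, 23 other shifts and 6 reversed. The cause was not tested. Same-numbered replicates deviated with a correlation of -0.081 to 0.121 over 18 pairs in MV411, -0.0067 to 0.0698 in MOLM13 and -0.048 to 0.037 in OCI-AML3. For pairs of different numbers it was -0.120 to 0.086, -0.102 to 0.050 and -0.051 to 0.085 in the same lines. With 3 libraries per group these values cannot settle whether same-numbered samples shared a culture or batch. With a replicate block 8701 genes were called for MI-503 in MV411 (8734 without), 8223 in MOLM13 (8015) and 9961 in OCI-AML3 (10299), with 5, 7 and 5 members (5, 6 and 6). The block called KMT2A in MOLM13 (adjusted p = 0.0192) and for MV411 minus MOLM13 (0.0279) and KMT2B for the combination against AC220 (0.0451), and lost KMT2B in OCI-AML3 (0.0609). Read depth limits MLLT3 in MV411, whose signal stayed under 56 in each library.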
